A study of Caenorhabditis elegans with 6 samples.

Results

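The nlp (neuropeptide-like protein) genes of Caenorhabditis elegans were followed in whole wild-type worms labelled as the L4 larval stage. Members were all genes of the deposited count table whose symbol in the WBcel235 annotation begins with nlp-, apart from nlp-27, nlp-28, nlp-29, nlp-30, nlp-31, nlp-33 and nlp-34. That rule gave 64 of the table's 46926 genes. The comparison was between 3 libraries of wild-type (WT) worms exposed to 50 µM FUDR and 3 of untreated WT worms on ordinary OP50-seeded plates. FUDR (5-fluoro-2′-deoxyuridine) is a nucleoside analogue that blocks thymidylate synthase, and OP50 is the Escherichia coli strain on which worms are routinely fed. The series set out to record the transcriptional effect of FUDR exposure at this stage. Nothing in the labels tells whether replicate libraries were separate cultures, so each p-value is set against a spread that may be partly technical.

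Neuropeptides are made as longer precursors that enter the secretory pathway, are cleaved at pairs of basic residues, trimmed and often amidated, and are released from dense-core vesicles. Worm precursors fall into the FMRFamide-like (flp), insulin-like (ins) and neuropeptide-like (nlp) classes, and the last is defined mainly by belonging to neither of the others. Most nlp products act on G protein-coupled receptors in neurons, muscle or gut and shape feeding, locomotion, egg laying, defecation and sleep-like quiescence. Some nlp genes are instead expressed mainly outside neurons, in epidermis or intestine.

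The FUDR libraries held between 61312034 and 84750980 counts over genes, and the OP50 libraries between 66005990 and 99234226. Levels are given in CPM, the count scaled to a common library size, after TMM normalization, which corrects for differences in library composition. A count of 3 corresponded to between 0.0315 and 0.0496 CPM per library. Fold changes are FUDR over OP50 from edgeR's quasi-likelihood test on all genes, with Benjamini-Hochberg adjustment over the 17022 genes tested, and a gene was called at an adjusted p under 0.05. Every marker gene looked up for neurons, germ line, intestine, epidermis and body wall muscle had enough counts to be tested, apart from 1 symbol that was not found. The libraries differed in the germ line list, where 13 of 14 genes were lower in FUDR, against 21% of all genes tested. The list's summed level was 2840 to 3824 CPM in FUDR and 6533 to 6804 CPM in OP50. The part of this difference in the nlp values was not tested. In RNA from whole animals, fewer cells of a type and less RNA per cell cannot be told apart.

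Of the 64 members 60 had enough counts to be tested, 33 rose in FUDR and 0 fell. Over all genes tested, 20.0% were called higher and 21% lower. The 33 rises made up 55.0% of the tested members. Their fold changes were mostly modest, from 1.29-fold to 2.84-fold with a median of 1.58-fold, and 4 reached 2-fold. The other 27 members did not pass, and their fitted log2 fold changes were also all above 0. A positive fitted value was found for 53.8% of all genes tested. The median log2 fold change was 0.55 over the 60 members and 0.05 over all genes tested. With edgeR's unadjusted p under 0.05 there were 39 members higher and 0 lower, and the share of all genes at that threshold is not given here. DESeq2 called 33 members higher and 0 lower, and 20.5% of all genes higher and 23.3% lower.

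The 3 scalings compared here moved the count but not the direction. Upper quartile scaling moved the median of all genes by 0.15 and library size alone by 0.23. Members called higher then numbered 44 and 49, with 0 lower in each case. Of all genes tested, 29.2% and 34.2% were called higher under these scalings, against 20.0% with TMM. Of all calls, 48.7% were rises with TMM scaling, 66.6% under upper quartile scaling and 75.1% by library size alone. The members' median stood 0.50 above the median of all genes with TMM and 0.49 above it with each of the other scalings. Leaving out a library gave between 22 and 36 rises, with 22 without OP50 replicate 2 or OP50 replicate 3 and 23 without FUDR replicate 2. The share of all genes called higher was then 13.5% to 19.7%. There were 0 falls in each of these fits.

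**Figure D1:**
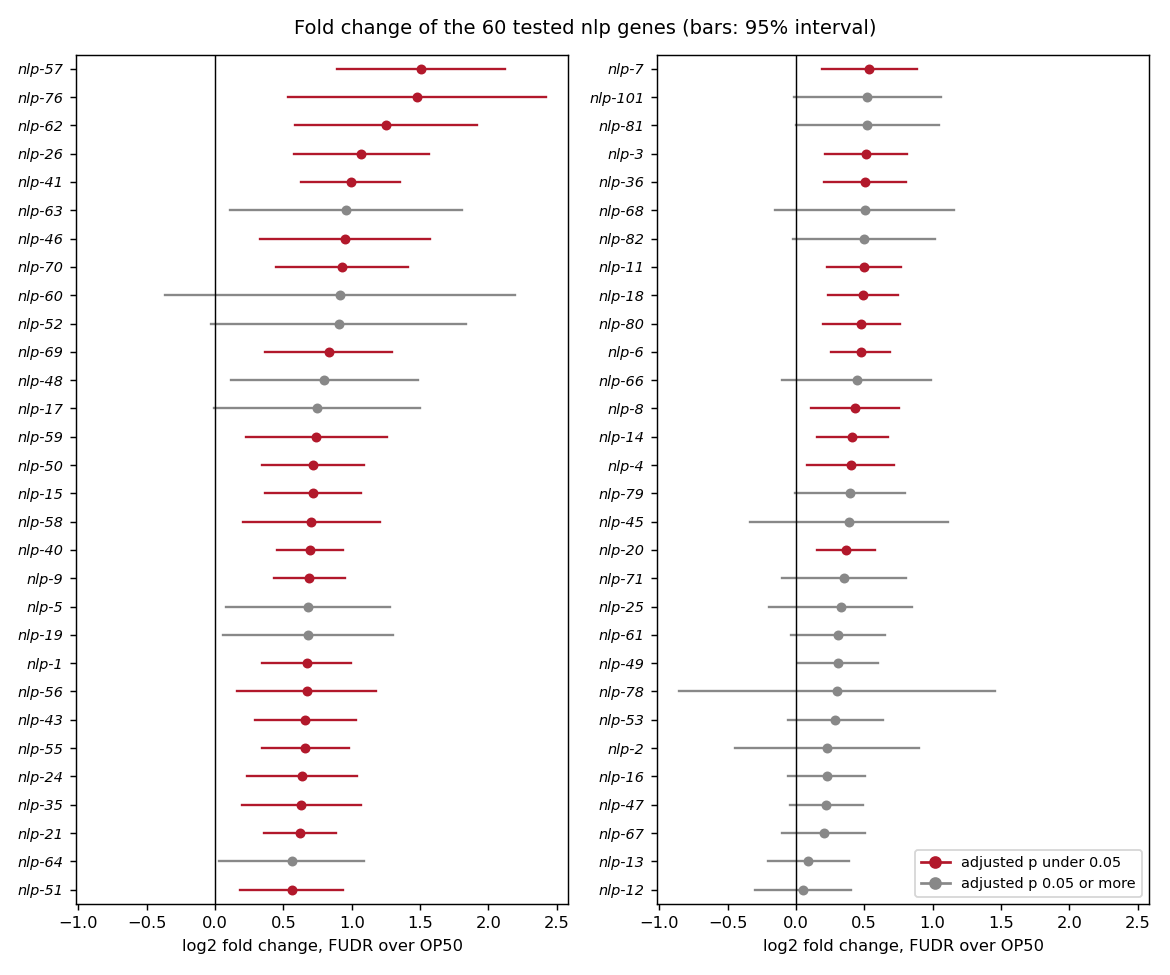
Each point is the log2 fold change (FUDR over OP50, edgeR) of 1 of the 60 tested nlp genes and each bar its 95% interval, ordered from the largest to the smallest value. Red marks the 33 genes with an adjusted p under 0.05 and grey the other 27. Every point lies right of 0, from 1.51 for nlp-57 to 0.05 for nlp-12.

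In all 33 genes that rose, the 3 FUDR libraries stood above the 3 OP50 libraries. Counting all tested members, the FUDR libraries lay wholly above the OP50 libraries for 42 and wholly below them for 0, against 28.0% and 26.7% of all genes tested, and the libraries overlapped for 18. Within FUDR, replicate 3 was the highest library for 34 members and replicate 1 the lowest for 32. Among the OP50 libraries, replicate 1 was the highest for 40 members and replicate 3 the lowest for 31. The family's summed level was 783, 814 and 940.4 CPM in FUDR and 550.0, 572 and 565 CPM in OP50. FUDR replicate 3, with the highest sum, also had the lowest summed body wall muscle markers, 6584 CPM against 12851 and 9166 CPM in the other FUDR libraries, and the lowest germ line sum. The muscle markers did not move alike. In FUDR replicates 1, 2 and 3 unc-54 had 5721, 3577 and 1996 CPM, and unc-15, unc-22 and myo-3 also fell steeply. The genes lev-11 and mup-2 fell less, hlh-1 did not fall, and unc-27 stayed near level at 980, 939 and 947 CPM. Without FUDR replicate 3, 28 members were called higher and 0 lower, with 17.9% of all genes called higher.

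The calls over all genes differed with expression level, so members were also set beside genes of like level. Between 1 and 10 CPM, where 33 of the 60 members lie, 17 members rose and 0 fell, against 27.7% of all genes higher and 6.80% lower in that range. Between 10 and 100 CPM 11 of 15 members rose, and in that range 16.8% of all genes were called higher and 33.0% lower. Over 100 CPM both members rose, nlp-24 and nlp-40, among genes of which 9.06% were called higher and 50.2% lower. Under 1 CPM 3 of 10 members rose and 0 fell, against 20.5% of all genes higher and 2.45% lower. The median log2 fold change of members in these ranges was 0.91 (under 1 CPM), 0.54, 0.48 and 0.67 (over 100 CPM). The same medians over all genes were 0.44, 0.24, −0.11 and −0.31, so that the members' median was above 0 in every range while that of all genes crossed 0.

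**Figure D2:**
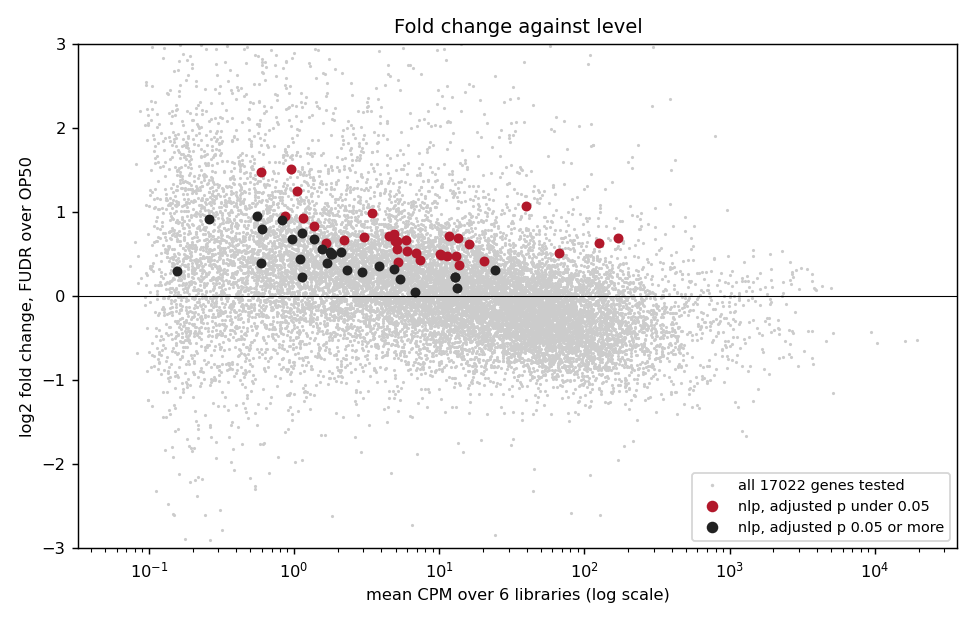
The log2 fold change (FUDR over OP50) of each tested gene is plotted against its mean CPM over the 6 libraries on a log scale, with all genes as light grey dots, called nlp genes in red and the other nlp genes in black. The cloud of all genes slopes from above 0 at low levels to below 0 at high levels, while the nlp points stay above 0 up to the most abundant members, and 245 genes lie outside the plotted range of 3 in either direction.

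The most abundant members were nlp-24, nlp-40, nlp-36 and nlp-26, which held 57.2% of the family's summed mean CPM, and all 4 rose. The gene nlp-40 (chromosome I, 11495 to 16837, WBcel235) encodes a peptide that the intestine releases as the timing signal of the defecation motor program. Its level was 182, 210.2 and 238 CPM in the FUDR libraries and 127, 133 and 129 CPM in the OP50 libraries. All FUDR values were above all OP50 values, and the OP50 libraries lay close together. The log2 fold change was 0.70 ± 0.107 (SE; 95% interval 0.45 to 0.94), with an edgeR adjusted p of 0.00132. Of 7 intestine markers 2 were called higher, elt-2 (0.44) and ifb-2 (0.41), and the list's median was 0.04. That share, 28.6%, compares with 20.0% of all genes tested. The elt-2 call was lost without FUDR replicate 2 or OP50 replicate 1 or 2, and the ifb-2 call without FUDR replicate 2 or OP50 replicate 2 or 3. The list's summed level was 1740.0 to 2062 CPM in FUDR and 1712 to 1942 CPM in OP50, so the groups overlapped.

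The gene nlp-24 (chromosome V, 11616376 to 11616828) encodes opioid-like peptides that act through the receptor NPR-17 and sustain feeding during starvation. It had 139, 142 and 179.6 CPM in FUDR and 73.4, 106 and 117 CPM in OP50. The groups did not overlap, with FUDR replicate 3 the highest and OP50 replicate 1 the lowest library. The log2 fold change was 0.64 ± 0.176 (95% interval 0.24 to 1.04, edgeR adjusted p = 0.0198), and without FUDR replicate 3 it was 0.51 and not called (adjusted p = 0.105).

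The gene nlp-26 (chromosome V, 19613461 to 19614534) belongs with nlp-24, nlp-25 and nlp-32 to the group of precursors with YGGW-type peptides, the group that also holds the epidermal antimicrobial genes left out here. It had 42.4, 44.9 and 74.0 CPM in FUDR and 22.6, 29.9 and 24.4 CPM in OP50. FUDR replicate 3 was far above the other FUDR libraries, which were themselves above every OP50 library. The log2 fold change was 1.07 ± 0.216 (95% interval 0.57 to 1.57, edgeR adjusted p = 0.0055). Its neighbour nlp-25 (chromosome V, 19606180 to 19608419) had 5.20, 4.62 and 6.48 CPM in FUDR and 3.21, 5.87 and 3.98 CPM in OP50, with overlapping groups. It was not called (0.33, 95% interval −0.19 to 0.85). The fourth of these genes, nlp-32, was too low to test, with 4, 2 and 1 counts in the FUDR libraries and 2, 6 and 1 in the OP50 libraries. Of the 8 epidermis markers 0 were higher, with edgeR's adjusted or unadjusted p or with DESeq2. Another 3 (37.5%) were lower, against 21% of all genes tested. Of those, dpy-3 lost its call without any single library other than OP50 replicate 2. The summed level of the 8 markers was 322 to 335 CPM in FUDR and 428 to 511 CPM in OP50.

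The small gene nlp-36 (chromosome III, 9488731 to 9489186) had 72.5, 74.5 and 87.1 CPM in FUDR and 44.3, 62.3 and 58.2 CPM in OP50. The groups did not overlap, and the OP50 libraries spread more widely than the FUDR libraries. The log2 fold change was 0.51 ± 0.133 (95% interval 0.21 to 0.81, edgeR adjusted p = 0.0152).

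Per kilobase of exon, which allows genes to be compared, nlp-24 was the highest member, at 407 ± 59.8 CPM per kilobase in FUDR and 262 ± 59.9 in OP50 (SD, n = 3 each). It was followed by nlp-40, at 294 ± 39.0 in FUDR and 182 ± 4.05 in OP50. Next came nlp-36, at 222 ± 22.4 in FUDR and 156 ± 26.7 in OP50, and nlp-26, at 138 ± 45.0 in FUDR and 65.7 ± 9.76 in OP50. In OP50 the spreads of nlp-36 and nlp-40 touched, while nlp-26 stood clear below both. A wide gap separated these from nlp-49, the next member, at 45.0 ± 2.50 in FUDR and 36.3 ± 6.36 in OP50. The gene nlp-20 followed at 32.6 ± 0.384 in FUDR and 25.2 ± 1.53 in OP50. Without the 4 most abundant genes the remaining 60 members summed to 346, 342 and 362 CPM in FUDR and 282, 241 and 236 CPM in OP50.

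**Figure D3:**
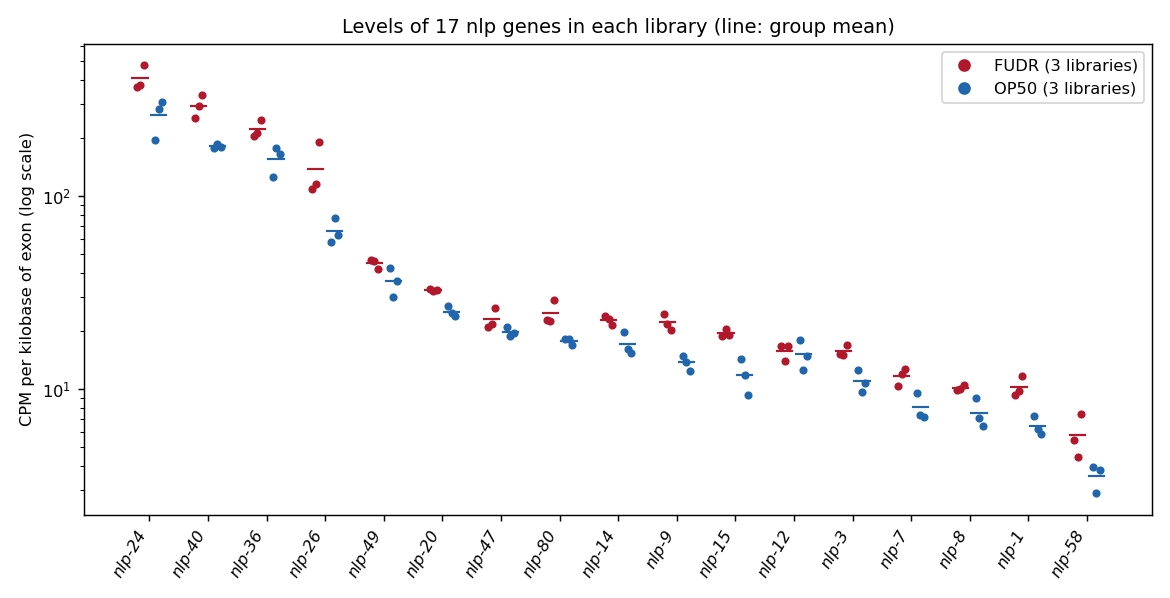
Levels of 17 nlp genes in each library, in CPM per kilobase of exon on a log scale, with the FUDR libraries in red left of the OP50 libraries in blue and a line at each group mean, ordered by mean level. The genes nlp-24, nlp-40, nlp-36 and nlp-26 stand apart at the top, and the groups overlap for nlp-49, nlp-47 and nlp-12.

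Among members with a mean of at least 1 CPM, the largest rises besides that of nlp-26 were in scarce genes. The gene nlp-62 (chromosome I, 5854199 to 5855040) had 1.16, 1.62 and 1.67 CPM in FUDR and 0.715, 0.760 and 0.398 CPM in OP50, so that it rose by 1.25 ± 0.293 on the log2 scale (edgeR adjusted p = 0.00925). The gene nlp-41 (chromosome II, 14550913 to 14552511) had 4.03, 4.31 and 5.30 CPM in FUDR and 2.38, 2.10 and 2.38 CPM in OP50, so that it rose by 0.99 ± 0.159 (edgeR adjusted p = 0.00159). In both genes the groups were separate, and for nlp-41 the gap between them was wider than the range within either. Also in this set were nlp-70, with a mean of 1.51 ± 0.019 CPM in FUDR and 0.790 ± 0.134 CPM in OP50 (0.93), and nlp-69, with 1.75 ± 0.213 CPM in FUDR and 0.983 ± 0.130 CPM in OP50 (0.83). The genes nlp-59 (0.74) and nlp-50 (0.72) were highest in FUDR replicate 3, at 7.89 and 6.95 CPM. For nlp-59 the call was lost without FUDR replicate 2 or 3 or OP50 replicate 2 or 3. These 4 genes had an edgeR adjusted p between 0.00826 and 0.0289.

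The genes under 1 CPM that rose, nlp-57, nlp-76 and nlp-46, were picked out after their values were seen. The gene nlp-57 (chromosome X, 11317050 to 11318055) had counts of 81, 138 and 133 in FUDR and 64, 25 and 29 in OP50, or 1.29, 1.49 and 1.49 CPM in FUDR and 0.673, 0.413 and 0.398 CPM in OP50. This was the largest fold change of the family, 2.84-fold (edgeR adjusted p = 0.00269), and it was called under every setting tried. The gene nlp-76 (chromosome X, 12662478 to 12663903) rose 2.78-fold with counts of 59, 78 and 75 in FUDR and 34, 28 and 9 in OP50 (edgeR adjusted p = 0.0205), a call lost without FUDR replicate 2 (adjusted p = 0.0604). It shares 67 exon bases with nhr-17 on the same strand. The gene nlp-46 rose 1.93-fold (edgeR adjusted p = 0.0223) and shares 88 of its 440 exon bases with T28H10.1 on the other strand, which was itself called higher (0.67). The nlp-46 call was lost without FUDR replicate 1 or OP50 replicate 2 and that of T28H10.1 without FUDR replicate 2 or OP50 replicate 1 or 2.

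Of 12 tested members listed for a published role in behaviour or physiology, 9 rose and 0 fell, against 20.0% of all genes called higher. That count was 4 without OP50 replicate 2 or OP50 replicate 3 and 6 without FUDR replicate 2 or FUDR replicate 3. In those fits 13.7%, 14.7%, 13.5% and 17.9% of all genes were called higher. The gene nlp-1 (chromosome X, 3727574 to 3728446), whose product the olfactory neuron AWC releases onto the NPR-11 receptor of its target AIA, had 6.60, 6.94 and 8.28 CPM in FUDR and 5.14, 4.40 and 4.16 CPM in OP50. No FUDR library reached down to the OP50 range, and the log2 fold change was 0.67 ± 0.144 (edgeR adjusted p = 0.00612). The gene nlp-9 (chromosome V, 4219642 to 4222233), whose product acts on NPR-18 in foraging behaviour, had 18.3, 16.4 and 15.2 CPM in FUDR and 11.2, 10.4 and 9.34 CPM in OP50. Here FUDR replicate 1 was the highest library, and the groups were well apart (0.69 ± 0.115, edgeR adjusted p = 0.00187). The gene nlp-58 (chromosome V, 9946321 to 9948940) encodes tachykinin-like peptides that activate TKR-1 and had 3.56, 2.90 and 4.86 CPM in FUDR and 2.57, 1.88 and 2.49 CPM in OP50. Its groups were separate but close (0.70 ± 0.221, edgeR adjusted p = 0.0318). That call was lost without FUDR replicate 3 or without any of the 3 OP50 libraries, with an adjusted p between 0.0529 and 0.108.

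The gene nlp-8, needed with other peptides of the ALA neuron for the sleep that follows cellular stress, averaged 8.52 ± 0.269 CPM in FUDR and 6.30 ± 1.10 CPM in OP50 (log2 fold change 0.43, edgeR adjusted p = 0.0375). The call ended without FUDR replicate 1, 2 or 3 or without OP50 replicate 2 or 3, at an adjusted p of up to 0.133. The orcokinin-like gene nlp-14 (chromosome X, 8917423 to 8919423), also active in that sleep, had 24.4, 23.7 and 22.04 CPM in FUDR and 20.3, 16.5 and 15.8 CPM in OP50. OP50 replicate 1 came nearest to the FUDR range (0.41 ± 0.114, edgeR adjusted p = 0.0188), and the call was lost without FUDR replicate 2 or OP50 replicate 2 or 3. The second orcokinin-like gene, nlp-15 (chromosome I, 12988231 to 12995475), had 13.96, 15.3 and 14.2 CPM in FUDR and 10.7, 8.81 and 6.90 CPM in OP50. Its FUDR libraries agreed closely while its OP50 libraries did not, and it was called under every setting tried (0.71 ± 0.155, edgeR adjusted p = 0.00646). The gene nlp-22, whose mRNA cycles with the larval molts and which promotes sleep from the RIA neurons, was not tested. It had counts of 0, 10 and 0 in FUDR and 0, 0 and 2 in OP50.

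The gene nlp-3, which acts with serotonin from the HSN neurons to stimulate egg laying, had 7.89, 7.82 and 8.79 CPM in FUDR and 6.52, 5.03 and 5.59 CPM in OP50 (0.51 ± 0.133, edgeR adjusted p = 0.0145). The gene nlp-7, which inhibits egg laying, had 6.25, 7.25 and 7.70 CPM in FUDR and 5.78, 4.46 and 4.36 CPM in OP50 (0.54 ± 0.153, edgeR adjusted p = 0.0218). The groups were separate in both genes, and in nlp-7 the lowest FUDR library was just above OP50 replicate 1, the highest OP50 library. Neither was called without OP50 replicate 2 or 3, and nlp-7 also not without FUDR replicate 2, with an adjusted p of up to 0.0838. The gene nlp-21, whose tagged product is used to follow dense-core vesicle release, had 19.4, 17.8 and 20.9 CPM in FUDR and 14.2, 11.9 and 11.5 CPM in OP50, and it rose under every setting tried (0.62 ± 0.116, edgeR adjusted p = 0.00317).

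Other abundant members that rose were nlp-20 and nlp-80. The gene nlp-20 (chromosome IV, 7642054 to 7643071) had 15.7, 15.3 and 15.6 CPM in FUDR and 12.8, 11.8 and 11.4 CPM in OP50, the smallest of the 33 rises (0.37 ± 0.0939, edgeR adjusted p = 0.0136). The gene nlp-80 (chromosome V, 11064954 to 11065613) averaged 13.2 ± 1.93 CPM in FUDR and 9.49 ± 0.373 CPM in OP50 (0.48, edgeR adjusted p = 0.0145). Neither was called without OP50 replicate 3, with an adjusted p of 0.064 for nlp-20 and 0.0573 for nlp-80, and nlp-20 also not without OP50 replicate 2.

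The other 9 genes that rose, given here after their values were seen, are nlp-4, nlp-6, nlp-11, nlp-18, nlp-35, nlp-43, nlp-51, nlp-55 and nlp-56, with log2 fold changes between 0.40 and 0.67. The steadiest was nlp-6 (chromosome X, 17662446 to 17665216), with 15.1, 14.7 and 15.9 CPM in FUDR and 11.4, 10.4 and 11.1 CPM in OP50 (0.48 ± 0.095, edgeR adjusted p = 0.00446). The genes nlp-11 (chromosome II, 9689664 to 9691939) and nlp-18 (chromosome II, 11027972 to 11030397) had similar levels. For nlp-11 these were 12.3, 11.8 and 11.7 CPM in FUDR and 9.48, 7.32 and 8.49 CPM in OP50, and for nlp-18 they were 12.2, 12.7 and 11.3 CPM in FUDR and 9.53, 8.23 and 7.97 CPM in OP50. Both rose, by 0.50 for nlp-11 and 0.49 for nlp-18 on the log2 scale. The gene nlp-55 (chromosome II, 8294829 to 8295396) had 5.65, 6.04 and 6.52 CPM in FUDR and 4.32, 3.79 and 3.41 CPM in OP50 (0.66 ± 0.140, edgeR adjusted p = 0.00584). These 4 were called under every setting tried. In contrast nlp-4, with 5.30, 6.08 and 6.34 CPM in FUDR and 4.98, 4.48 and 3.96 CPM in OP50, was close to the threshold (edgeR adjusted p = 0.0482) and lost its call under 8 settings, among them RLE scaling and the fit without a count filter. The gene nlp-35 overlaps C33A12.19 on the other strand over 15.7% of its exon bases, and that gene was lower in FUDR (−0.89), the reverse of nlp-35 itself (0.63). Calls were also lost without single libraries for nlp-35 and nlp-43 (FUDR replicate 2 and OP50 replicate 2 for both, and FUDR replicate 3 and OP50 replicate 3 for nlp-35). The same held for nlp-51 (FUDR replicate 1 or 2, OP50 replicate 1 or 3) and nlp-56 (FUDR replicate 1 or 2, OP50 replicate 1 or 2).

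Some well-expressed members did not pass. The cholecystokinin-like gene nlp-12 (chromosome I, 1843384 to 1843959), made by the stretch-sensitive neuron DVA and acting on CKR-1 and CKR-2 in locomotion, had 7.32, 6.12 and 7.32 CPM in FUDR and 7.87, 5.54 and 6.57 CPM in OP50. The groups overlapped fully, and OP50 replicate 1 was the highest of all 6 libraries. The log2 fold change was 0.05 with a 95% interval of −0.30 to 0.40, and it was −0.070 without OP50 replicate 2. The gene nlp-13 (chromosome V, 4236418 to 4238056) had 15.9, 12.96 and 12.3 CPM in FUDR and 14.3, 12.5 and 11.7 CPM in OP50, also overlapping. It was at 0.09 (95% interval −0.20 to 0.39) and at −0.031 without FUDR replicate 1. Another peptide gene of similar level, nlp-67 (named after its values were seen), had 6.40, 5.19 and 5.61 CPM in FUDR and 4.62, 5.03 and 5.28 CPM in OP50 and was at 0.20 (95% interval −0.10 to 0.51). For 5 of the 27 genes that did not pass, the interval lay within 1.5-fold in both directions.

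The arousal peptide gene nlp-49 (chromosome X, 5904653 to 5905345), which acts through SEB-3, had 27.9, 27.8 and 25.2 CPM in FUDR and 25.6, 17.97 and 21.7 CPM in OP50. Only OP50 replicate 1 reached the FUDR range (0.31, 95% interval 0.02 to 0.60, edgeR adjusted p = 0.0848), and the gene was called without that library (0.44, adjusted p = 0.0243). Upper quartile scaling and library size alone also gave a call. The gene nlp-47 (chromosome IV, 5290847 to 5293654) encodes a peptide related to gonadotropin-releasing and adipokinetic hormones. It averaged 13.8 ± 1.78 CPM in FUDR and 11.8 ± 0.710 CPM in OP50 (0.22, 95% interval −0.05 to 0.49), and of the alternatives upper quartile scaling and library size alone gave a call. The gene nlp-16 had 13.8 ± 0.991 CPM in FUDR and 11.8 ± 1.65 CPM in OP50 (0.22, 95% interval −0.06 to 0.51) and passed with library size alone.

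Most of the other members that did not pass were scarce. Those with the largest fitted values were nlp-63, nlp-60 and nlp-52, also named after their values were seen. The gene nlp-63 (chromosome II, 10155406 to 10156222) had 0.589, 0.725 and 0.885 CPM in FUDR and 0.210, 0.463 and 0.481 CPM in OP50. Its groups did not overlap, but the OP50 libraries spread over more than the gap, and the interval ran from 0.11 to 1.81 (0.96, edgeR adjusted p = 0.0688). For nlp-60 the interval was −0.36 to 2.19 and for nlp-52 it was −0.03 to 1.83, and in both the groups overlapped. In 9 of the 27 genes every FUDR library was above every OP50 library, as in nlp-19, nlp-48, nlp-53 and nlp-61. The 28.0% of all genes tested that were separated in this way include called genes, so that share is no like measure for these 27. The share among genes not called is not given here.

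Besides nlp-22 and nlp-32, the members too low to test were nlp-23, with 5, 3 and 11 counts in FUDR and 8, 5 and 4 in OP50, and nlp-39, with 4, 0 and 4 in FUDR and 1, 0 and 0 in OP50. The count filter left these 4 genes out of the main fit, so a difference in them was not tested there. The genes nlp-22 and nlp-23 lie in a tandem run on the minus strand of chromosome X with nlp-45 and nlp-2, between 2337600 and 2344766. The tested genes of that run were at low levels and neither was called, nlp-45 at 0.676 ± 0.187 CPM in FUDR and 0.514 ± 0.104 CPM in OP50 and nlp-2 at 1.22 ± 0.278 CPM in FUDR and 1.03 ± 0.340 CPM in OP50.

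All 64 members are protein-coding and short. Their longest coding sequence encodes 64 to 326 amino acids with a median of 90, against a median of 351 over the protein-coding genes tested. Their transcripts have 1 to 5 exons with a median of 3. Members lie on all 6 chromosomes, 19 of them on the X chromosome. Of the members tested, 9 of 11 on chromosome V rose and 7 of 17 on X, where 25.1% and 18.5% of all genes of those chromosomes were called higher. The medians of the members' log2 fold changes ran from 0.46 on chromosome IV to 0.70 on chromosome V. Exons of 13 members overlap another annotated gene, 10 of them on the opposite strand, and since the strand setting of the counting is not given, reads in the shared stretch may not be told apart. The overlap covered at most 20.0% of a member's exon bases. Of the 47 tested members with no such overlap 24 rose and 0 fell, against 20.0% of all genes tested called higher and 21% lower. The gene nlp-36 shares 11 bases with the abundant aspartyl-tRNA synthetase gene dars-1, which was not called (0.14), and nlp-41 shares 8 bases with the splicing factor gene mog-4, which was lower in FUDR (−0.32), though not without OP50 replicate 2 or under upper quartile scaling or library size alone.

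Known receptors of nlp peptides were looked up beside their ligands. Of 11 listed receptor genes 2 rose and 0 fell with edgeR's adjusted p and with DESeq2, and 3 were higher and 1 lower at an unadjusted p under 0.05. The share called higher, 18.2%, was close to the 20.0% of all genes. The gene of the cholecystokinin-like receptor ckr-2 had 12.3, 12.8 and 10.1 CPM in FUDR and 2.72, 3.16 and 2.36 CPM in OP50, a 4.28-fold rise (log2 fold change 2.10 ± 0.154, edgeR adjusted p = 7.07e-05). Every FUDR library was far above the OP50 range, although the gene of its ligand nlp-12 was not called. The second receptor gene of that ligand, ckr-1, was not called either (0.05). The gene tkr-1 had 0.987, 0.985 and 1.15 CPM in FUDR and 0.578, 0.430 and 0.481 CPM in OP50, a 2.08-fold rise (edgeR adjusted p = 0.00925), and its ligand gene nlp-58 also rose. The receptor gene of nlp-1, npr-11, had 0.286, 0.390 and 0.403 CPM in FUDR and 0.547, 0.744 and 0.632 CPM in OP50. Its groups did not overlap and its fitted value was negative, at −0.81 (95% interval −1.50 to −0.12), but it did not pass (edgeR adjusted p = 0.0602). The receptor gene of nlp-40, aex-2, was not called (0.25, 95% interval −0.21 to 0.70), nor was gnrr-1, the receptor gene of nlp-47 (0.68, edgeR adjusted p = 0.0659). With upper quartile scaling or library size only, 5 of the 11 were called higher, as were 29.2% and 34.2% of all genes.

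Of 20 genes of peptide processing and dense-core vesicles 5 rose and 1 fell, a share of rises (25%) near the 20.0% of all genes called higher. There were 2 falls with DESeq2, without FUDR replicate 1 and with scaling to neuronal markers. The chaperone gene sbt-1, whose product assists the proprotein convertase EGL-3, had 59.2, 62.4 and 66.3 CPM in FUDR and 46.3, 39.99 and 40.8 CPM in OP50 (0.56 ± 0.0881, edgeR adjusted p = 0.00141). Both separate genes of the amidation steps rose, pgal-1 to 69.8 ± 1.91 CPM in FUDR against 49.2 ± 3.63 CPM in OP50, and pghm-1 to 40.1 ± 1.31 CPM in FUDR against 29.9 ± 3.46 CPM in OP50 (edgeR adjusted p = 0.00166 and 0.00881). The vesicle maturation gene ric-19 (0.60) and the convertase gene kpc-1 (0.44) also rose, and hid-1, which helps to retain cargo in maturing vesicles, was lower (−0.39 ± 0.0853, edgeR adjusted p = 0.0071). The kpc-1 call was lost without OP50 replicate 2 and the hid-1 call with library size alone (−0.16). The main convertase gene egl-3 had 149, 131 and 103 CPM in FUDR and 140.3, 108.1 and 109.8 CPM in OP50 and was not called (0.10, 95% interval −0.25 to 0.44). The carboxypeptidase E gene egl-21 was not called either (0.14, 95% interval −0.06 to 0.34). Negative values that did not pass were those of the amidating enzyme gene pamn-1 (−0.17, 95% interval −0.38 to 0.03) and the convertase gene bli-4 (−0.24, 95% interval −0.45 to −0.03), among others. The FUDR libraries lay wholly above the OP50 libraries for 7 of the 20 genes and wholly below for 4. For all genes tested these shares were 28.0% and 26.7%. Under upper quartile scaling 10 of the 20 rose, and 11 by library size alone. Of all genes, 29.2% and 34.2% were called higher under these scalings.

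General neuronal markers moved in both directions, with 33.3% called higher and 25% lower, against 20.0% and 21% of all genes tested. Of 12 genes 4 rose (ric-4, rab-3, snt-1 and unc-64, between 0.33 and 0.43) and 3 fell (maco-1, unc-11 and unc-18, between −0.53 and −0.29). Their median log2 fold change was 0.16, and their summed level was 481 to 536 CPM in FUDR and 550.0 to 559 CPM in OP50. Each of the 4 rises was lost without OP50 replicate 2, and ric-4 and snt-1 were also not called without FUDR replicate 2 or OP50 replicate 3, nor ric-4 without OP50 replicate 1. The falls of unc-11 and unc-18 were lost without FUDR replicate 2 or OP50 replicate 2 or 3, that of unc-11 also without OP50 replicate 1, and both under upper quartile scaling or library size alone. When the libraries were scaled to the geometric mean of these 12 genes, a setting added after the data were seen, 32 nlp members were called higher and 0 lower. The members' median was then 0.51, and 16.9% of all genes were called higher and 23.0% lower. All 32 were among the 33 called with TMM scaling.

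The other peptide precursor families were counted in the same fit. Of 30 tested flp genes 24 rose and 0 fell, with a median log2 fold change of 0.56, and of 27 tested ins genes 12 rose and 0 fell, with a median of 0.61. DESeq2 called 26 flp genes higher and 0 lower, and 13 ins genes higher and 1 lower, against 20.5% of all genes higher and 23.3% lower. With edgeR, 1 ins gene was also called lower without FUDR replicate 1 or FUDR replicate 3. The values of the nlp genes stayed within 0.05 to 1.51 and those of the flp genes within 0.26 to 1.22, all above 0. Those of the ins genes ran from −1.07 to 3.13. The shares called higher were 55.0% of nlp, 80.0% of flp and 44.4% of ins genes, against 20.0% of all genes tested. The differences between families were not tested. Markers of body wall muscle gave 0 rises and 0 falls of 8 genes with edgeR's adjusted p, and 1 rise with DESeq2 and at an unadjusted p under 0.05. Without FUDR replicate 1 there were 4 falls, and without FUDR replicate 3 there was 1 rise.

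**Figure D4:**
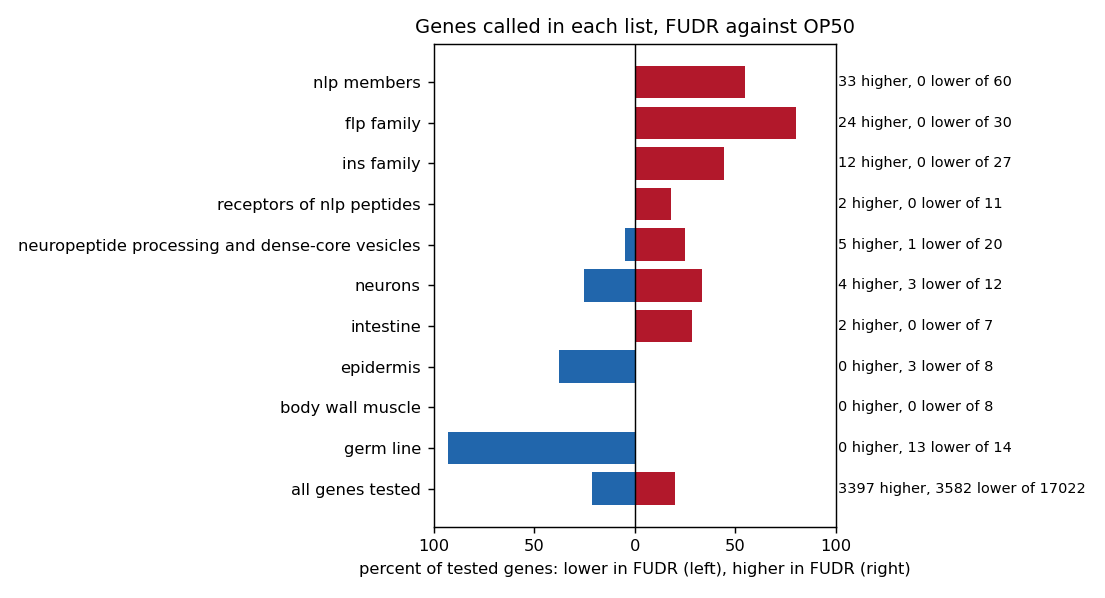
Bars give the percent of tested genes of each list called higher (red, right) or lower (blue, left) in FUDR than in OP50 by edgeR, with the counts beside them. The 3 peptide families have bars only to the right, the germ line list has a bar only to the left, and all genes tested are at 20.0% higher and 21% lower.

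A few genes fall outside the spelling rule although RefSeq names them nlp. The gene that RefSeq calls nlp-10 is spelled npl-10 in the annotation used and had 15.5, 15.2 and 17.8 CPM in FUDR and 12.1, 11.5 and 12.8 CPM in OP50 (0.42 ± 0.104, edgeR adjusted p = 0.0123). The groups did not overlap, and the call was lost without OP50 replicate 2. M04B2.6, named nlp-88 by RefSeq, had 3.58, 3.37 and 3.35 CPM in FUDR and 1.67, 1.72 and 1.66 CPM in OP50 (1.03 ± 0.144, edgeR adjusted p = 0.00088), among the steadiest levels within each group. T05A8.3, named nlp-99, was also called higher (0.49, edgeR adjusted p = 0.0211), though not without FUDR replicate 1 or 2 or OP50 replicate 2 or 3. C35B1.7 (nlp-89, 0.80) and K02A6.2 (nlp-91, 0.52) were tested and not called, and none of these genes is counted among the 64.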

How the data were processed

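Poly(A)-selected RNA of 6 whole-worm libraries was sequenced by the authors. The deposited table holds raw counts per gene from STAR and HTSeq on WBcel235, per the submitters' processing notes, which name no versions or strand setting. It has 46926 genes and 5 summary rows. Those rows, with 4.55% to 5.33% of counts, entered neither library sizes nor tests. Symbols came from a gene name table and positions from the Ensembl 115 annotation, matched by gene identifier.

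The count test was edgeR 4.0.16 under R 4.3.3 (filterByExpr with a minimum count of 10 and total of 15, TMM, robust quasi-likelihood F test). The standard error is the absolute log2 fold change over the root of the F statistic. CPM per kilobase divides by merged exon length. The procedure was also run on simulated counts in which few genes changed, up or down at random, which cannot check the choice of scaling. The alternatives were DESeq2 1.42.0, other scalings, other filters, the replicate number as a block and leaving out each library. Replicates of a group differed beyond sampling noise (chi-square over its degrees of freedom 19.6 or more).

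The members, lists and tests were chosen with earlier results of these data known. Members named are the 12 largest rises of at least 1 CPM, the 8 highest per kilobase, the 5 highest that were not called, nlp-21 and those of 3 role lists. Of the symbols listed, nlp-38 and opt-2 had no row under that name. The CPM given for a count of 3 covers counting error only. The 95% intervals use the standard error above, which includes the spread between libraries of a group. Protein sequences are not shown.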

Additional observations from a re-analysis of the deposited data

How the results depend on the processing

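Under the 14 alternatives the 33 rises became 22 to 49 and the 0 falls stayed 0, and 17 of the 33 genes were called higher under every one: nlp-1, nlp-6, nlp-9, nlp-11, nlp-15, nlp-18, nlp-21, nlp-26, nlp-36, nlp-40, nlp-41, nlp-50, nlp-55, nlp-57, nlp-62, nlp-69 and nlp-70. Leaving out 1 library gave 22 to 36 rises and 0 falls, with 13.5% to 19.7% of all genes called higher. The median log2 fold change of the members was then 0.51 to 0.62. That median of 0.55 was 0.70 under upper quartile scaling and 0.77 by library size alone. It was 0.53 with RLE scaling and with DESeq2. Without a count filter 32 of 64 members rose, against 13.02% of all genes in that fit called higher. With at least 1 CPM in 3 libraries 31 of 50 rose, against 23.05% of all genes in that fit. With the replicate number as a block 32 rose, 30 of them among the 33, and 18.89% of all genes were called higher. In that fit nlp-4, nlp-35 and nlp-56 were not called, nor were the marker genes unc-18, dpy-3 and syp-2. Same-numbered libraries correlated at 0.0551, −0.0166 and 0.0576 in their deviations from the group means, so no pairing by number was visible. The labels do not say whether the numbers pair the samples, and these values cannot settle it. For 27 named genes, 2 of 378 values changed sign, nlp-13 without FUDR replicate 1 (range −0.031 to 0.17 over the left-out libraries) and nlp-12 without OP50 replicate 2 (range −0.070 to 0.19). Neither was called in any fit. Of the 378 values, each 1 gene in 1 setting, 25 lost a call and 6 gained one. The causes were not tested. Depth limits the 10 tested members under 1 CPM, where 3 were called, and the 4 not tested.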
